A study of Mus musculus with 15 samples.

Results

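The YAP1/TEAD target genes described here are 10 genes, Ccn1, Ccn2, Ankrd1, Axl, F3, Crim1, Nuak2, Rbms3, Ccdc80 and Myof, chosen by name as known targets and matched by symbol to 10 of the 55471 genes in the deposited count table (the older symbols of Ccn1 and Ccn2 are Cyr61 and Ctgf). Poly(A)-enriched RNA of 15 mouse libraries, all with the cell type label MSCLCs, was sequenced for a study of YAP1, EWS::FLI1 and IGF-1 in bone mesenchymal stem cells. In experiment 1 there were 4 EFPrx1MSCLC libraries, numbered 219, 221, 225 and 229 in their titles, and 3 MSC libraries, numbered 202, 234 and 237, which the series design calls WT. In experiment 2 there were 2 ha, 4 hr and 2 EF libraries, which the design calls ha-EFPrx1, hr-EFPrx1 and EFPrx1. All titles of experiment 2 carry the number 221; those of ha add Combi-T1 or T2, and those of hr add Combi-uns-1 or Combi-uns-2, called here the hr lines uns-1 and uns-2, with 2 libraries each. By these names ha, hr and EF all carry EFPrx1. The sources used here do not spell out ha, hr, Combi, uns or MSCLC, nor the age and strain of the animals, any treatment or what drives the transgene.

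YAP1 and its relative TAZ (gene Wwtr1) are transcriptional coactivators that the Hippo kinases hold in the cytoplasm. When they enter the nucleus they bind TEAD transcription factors, which recognise short DNA elements, often beside AP-1 sites, and genes such as Ccn1, Ccn2 and Ankrd1 are the usual readouts of that binding. In mesenchymal cells the same genes also respond to matrix stiffness, cell spreading, serum and growth factors, so their level is not a direct measure of YAP1.

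The 10 genes fall into 5 roles. Ccn1 (ENSMUSG00000028195, chr3:145646976-145649981 on GRCm38) and Ccn2 (ENSMUSG00000019997, chr10:24595442-24598683) encode secreted matricellular proteins that bind integrins, and Ccdc80 (ENSMUSG00000022665, chr16:45093402-45128077) encodes another secreted matrix protein. Axl (ENSMUSG00000002602, chr7:25757273-25788705) encodes the receptor tyrosine kinase for GAS6, F3 (ENSMUSG00000028128, chr3:121723537-121735048) encodes tissue factor, the cell surface starter of coagulation, and Crim1 (ENSMUSG00000024074, chr17:78200248-78376592) encodes a transmembrane protein that binds BMPs. Ankrd1 (ENSMUSG00000024803, chr19:36111961-36120099) encodes an ankyrin repeat protein of muscle sarcomeres and nuclei, and Nuak2 (ENSMUSG00000009772, chr1:132316126-132333488) encodes a kinase of the AMPK family. Rbms3 (ENSMUSG00000039607, chr9:116572746-117629913) encodes an RNA-binding protein, and Myof (ENSMUSG00000048612, chr19:37899036-38043577) encodes a ferlin of membrane fusion and repair. All 10 are annotated as protein-coding, and all 10 passed the filter on low counts in both experiments. Ccn2, Crim1 and Rbms3 each overlap another annotated gene, mostly on the opposite strand, and since strand use in the counting is not given, reads of such pairs may not have been separated.

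RefSeq promoter windows (GRCm38.p6, the 250 bases before the RefSeq start) were matched for 7 of the 10 genes, Ccn1, Ankrd1, Axl, F3, Crim1, Rbms3 and Myof. The RefSeq starts can differ from the gene positions given above, and the Ankrd1 window lies inside the Ankrd1 interval printed there. Both strands were searched for GGAATG, the core of TEAD elements (CATTCC on the other strand), and for TGANTCA, the AP-1 element, where N is any base. The TEAD core occurred in 4 of the 7 genes, in Ankrd1 at 123 and 210 bases before the start, in Ccn1 at 103, in Crim1 at 79 and in Axl at 233. Counted by window, 4 of 8 held the TEAD core, since Rbms3 has an additional window, beside 12.6% of all 32851 promoter windows of that length. The AP-1 element occurred in F3, at 135 and 146 bases before the start, and in 6.75% of all windows. Such a match describes the letters of the window and does not show that a factor binds there. Myof, which was also lower in hr uns-1 than in hr uns-2, held neither motif in its window, and neither did Rbms3. The windows of Ccn1, Ankrd1 and Crim1, genes that were lower together in hr uns-1 than in hr uns-2, and of F3, which was not, are printed with the matched letters in capitals (the TEAD core on either strand in the first 3, the AP-1 element in F3).
Ccn1 promoter, chr3:145649986-145650235, reverse strand: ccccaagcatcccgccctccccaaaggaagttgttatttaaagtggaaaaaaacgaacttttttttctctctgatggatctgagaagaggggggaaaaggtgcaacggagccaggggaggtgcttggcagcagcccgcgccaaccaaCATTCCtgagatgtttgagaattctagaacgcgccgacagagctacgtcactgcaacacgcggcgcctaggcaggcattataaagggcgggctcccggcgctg
Ankrd1 promoter, chr19:36119845-36120094, reverse strand: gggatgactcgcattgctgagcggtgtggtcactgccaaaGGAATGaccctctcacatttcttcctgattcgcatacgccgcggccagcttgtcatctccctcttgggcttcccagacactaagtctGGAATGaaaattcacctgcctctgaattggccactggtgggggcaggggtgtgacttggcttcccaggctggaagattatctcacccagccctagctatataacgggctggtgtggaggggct
Crim1 promoter, chr17:78199998-78200247, forward strand: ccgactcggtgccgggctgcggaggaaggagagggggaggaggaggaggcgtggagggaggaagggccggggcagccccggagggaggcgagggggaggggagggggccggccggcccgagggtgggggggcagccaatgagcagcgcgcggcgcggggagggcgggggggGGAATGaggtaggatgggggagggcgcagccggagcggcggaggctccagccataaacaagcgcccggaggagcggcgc
F3 promoter, chr3:121723287-121723536, forward strand: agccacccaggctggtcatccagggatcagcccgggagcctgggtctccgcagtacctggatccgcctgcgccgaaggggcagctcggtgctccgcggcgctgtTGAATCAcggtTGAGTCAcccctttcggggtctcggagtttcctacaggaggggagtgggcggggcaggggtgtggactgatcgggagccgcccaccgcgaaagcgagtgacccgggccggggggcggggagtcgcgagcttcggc

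Library totals ran between 14906209 and 26833922 expected counts in experiment 1 and between 11195401 and 16378408 in experiment 2, where an expected count is a read count estimated per gene. Levels below are CPM after TMM scaling, done within each experiment, and changes are log2 fold changes ± SE from edgeR's quasi-likelihood test, adjusted over all genes tested, with a threshold of 0.05. Each experiment had its own flowcell, so flowcell and experiment cannot be told apart and no test was made across them. The labels do not say that libraries of a group are separate cultures or animals, so each p-value reflects library-to-library spread alone, possibly technical. The median squared difference between paired libraries was 1.35 times sampling noise for the EF pair and 1.29 times for the pair within each hr line, against 21.6 for the ha pair, 16.3 to 17.9 for pairs across the hr lines and 7.62 to 124 for pairs within EFPrx1MSCLC and within MSC. The pair of EF and each hr pair may therefore be repeat libraries of one sample; tests count them as separate, and values with the repeats summed are given beside the calls they end. All 12 mesenchymal stromal markers examined reached 1 CPM in every library, and summed to between 4472 and 10960 CPM in EFPrx1MSCLC and between 16150 and 20300 CPM in MSC. The collagen genes Col1a1 and Col1a2 weighed heavily in these sums, with means of 771 and 1396 CPM in EFPrx1MSCLC and 5517 and 7306 CPM in MSC. Of the 12 markers, 1 rose, 2 fell and 9 did not pass, beside 7.7% of all genes higher and 12.1% lower. Their median log2 fold change was 0.33, so the lower sum was not shared by the markers as a whole. The 16 hematopoietic markers summed to between 66.2 and 471.8 CPM in EFPrx1MSCLC libraries and to between 12620 and 35350 CPM in MSC libraries, and to at most 62.6 CPM in any library of experiment 2.

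**Figure D1:**
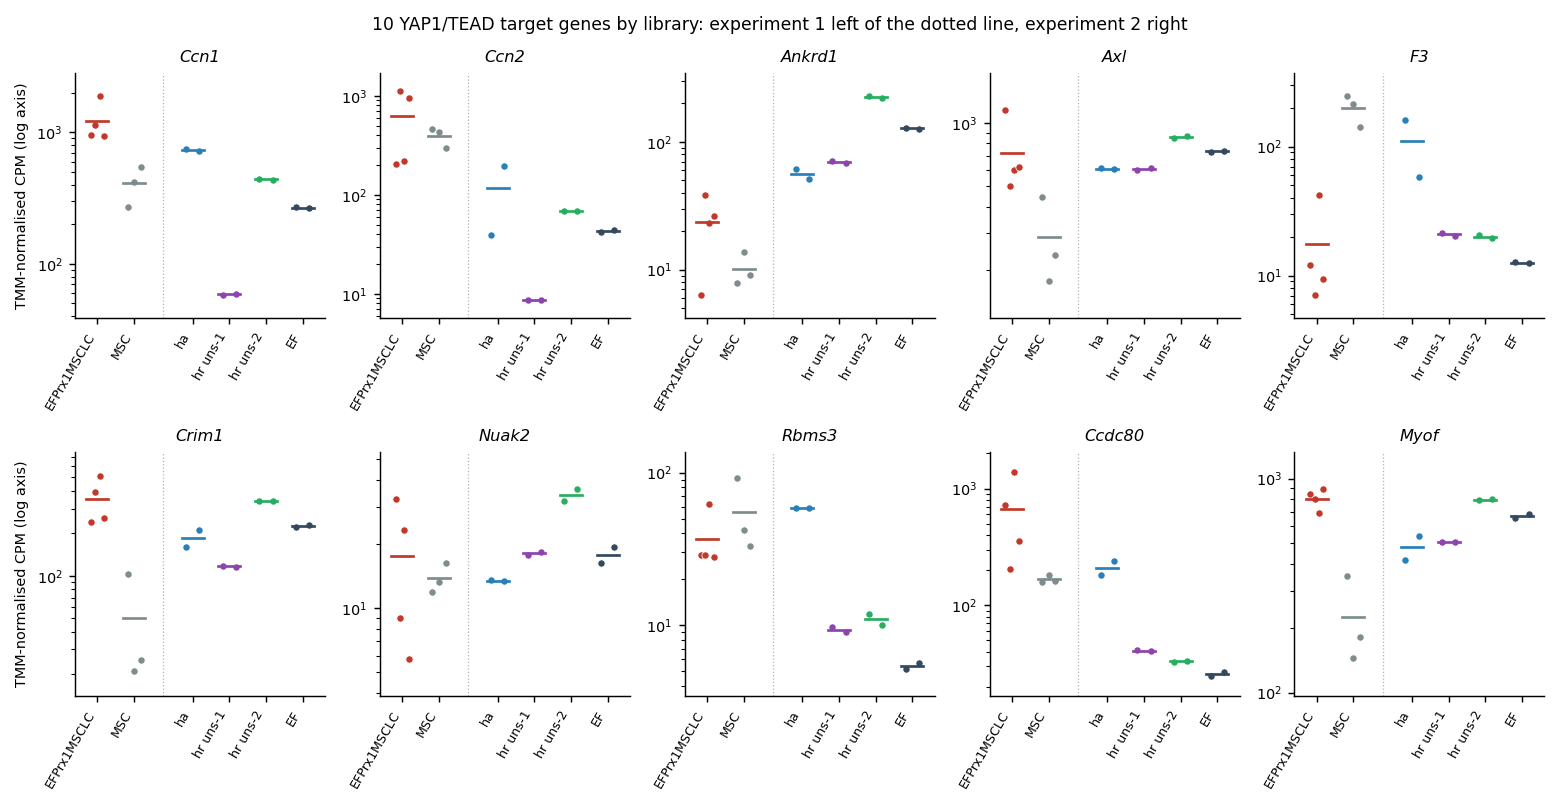
TMM-normalised CPM (log axis) of the 10 genes in each library, with EFPrx1MSCLC and MSC of experiment 1 left of the dotted line and ha, hr uns-1, hr uns-2 and EF of experiment 2 right of it; points are libraries and bars group means. Ccn1 and Ccn2 are lowest in hr uns-1 (58.4 and 59.2 CPM for Ccn1), and the 2 experiments were scaled separately.

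The first comparison asked how the target genes differed between EFPrx1MSCLC and MSC cells. Of the 10 genes, Ccn1, Crim1 and Myof rose, F3 fell, and 6 did not pass the test. Over all 14623 genes tested, 19.8% were called, 7.7% higher and 12.1% lower. The median log2 fold change was 1.27 over the 10 genes and 0.04 over all genes, and 8 of the 10 had a positive value, beside 51.9% of all genes.

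Ccn1 stood at 960, 1146, 1878 and 931.5 CPM in EFPrx1MSCLC libraries 219, 221, 225 and 229, against 269, 421 and 548 CPM in MSC libraries 202, 234 and 237. All EFPrx1MSCLC libraries lay above all MSC libraries, and the change was 1.57 ± 0.41 (edgeR adjusted p = 0.0344). Ccn2, its close relative, had 205, 1126, 218 and 949 CPM in EFPrx1MSCLC libraries and 457.5, 427 and 295 CPM in MSC libraries. The EFPrx1MSCLC libraries split, with 219 and 225 below every MSC library and 221 and 229 above every one, so that the difference of 0.67 ± 0.67 did not pass (edgeR adjusted p = 0.499). Ccn1 and Ccn2 thus did not follow each other across the 4 EFPrx1MSCLC libraries, since library 225 had the highest Ccn1 and nearly the lowest Ccn2. Ccdc80, the third secreted product, had 719, 205, 1385 and 356 CPM in EFPrx1MSCLC libraries and 159.6, 181.5 and 162 CPM in MSC libraries. Every EFPrx1MSCLC library was above every MSC library, but the EFPrx1MSCLC values spread widely, and 1.99 ± 0.65 did not pass (edgeR adjusted p = 0.0682).

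Among the surface proteins, Crim1 and F3 moved in opposite directions. Crim1 had 242, 394, 509 and 256 CPM in EFPrx1MSCLC libraries and 104, 21.0 and 25.1 CPM in MSC libraries. Its groups did not overlap, although MSC 202 was well above the other two MSC libraries, and it rose by 2.81 ± 0.67 (edgeR adjusted p = 0.0263). F3 had 11.99, 7.05, 42.0 and 9.35 CPM in EFPrx1MSCLC libraries and 247, 212 and 141 CPM in MSC libraries. Tissue factor mRNA was lower in each EFPrx1MSCLC library than in any MSC library, with library 225 apart from the other EFPrx1MSCLC libraries, and fell by 3.51 ± 0.66 on the log2 scale (edgeR adjusted p = 0.0112). Axl had 1154, 498.5, 598 and 617 CPM in EFPrx1MSCLC libraries and 442, 176.5 and 236 CPM in MSC libraries. Here too the groups did not overlap, and the difference was 1.33 ± 0.46 (edgeR adjusted p = 0.0778), which did not pass.

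Myof, the membrane repair gene, was the most even of the 4 called genes within EFPrx1MSCLC. It had 847, 800.3, 687.5 and 892 CPM in EFPrx1MSCLC libraries and 352, 144.5 and 182 CPM in MSC libraries. The groups did not overlap, and Myof rose by 1.84 ± 0.38 (edgeR adjusted p = 0.0161). Ankrd1 had 6.30, 38.4, 23.2 and 26.5 CPM in EFPrx1MSCLC libraries and 7.92, 13.7 and 9.03 CPM in MSC libraries. Library 219 was below every MSC library and the other three EFPrx1MSCLC libraries above every one, and 1.21 ± 0.57 did not pass (edgeR adjusted p = 0.168). Nuak2 ranged between 5.80 and 32.5 CPM in EFPrx1MSCLC and between 11.9 and 16.3 CPM in MSC, and Rbms3 between 27.8 and 62.1 CPM in EFPrx1MSCLC and between 33.0 and 91.7 CPM in MSC. For both genes the groups overlapped, with differences of 0.35 ± 0.59 for Nuak2 (edgeR adjusted p = 0.697) and -0.59 ± 0.45 for Rbms3 (edgeR adjusted p = 0.371).

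Calls of experiment 1 often did not hold when 1 library was left out. Calls over all genes also changed, from 2889 to 1276 and 1221 without MSC 234 and 237, and to 5087 without MSC 202. Without EFPrx1MSCLC 219, 221, 225 and 229 they were 2628, 1673, 3225 and 1580. F3 stayed past the threshold when any of the 7 libraries was left out. Ccn1 did so only without MSC 202 (edgeR adjusted p = 0.0393) and not without EFPrx1MSCLC 219, 221, 225 or 229 (0.0568, 0.0886, 0.0552 and 0.0751) or MSC 234 or 237 (0.114 and 0.0754). Crim1 lost its call without EFPrx1MSCLC 221, MSC 234 or MSC 237 (edgeR adjusted p = 0.0522, 0.0811 and 0.0997), and Myof lost its call without MSC 234 or 237 (0.0594 and 0.0829). Ankrd1 passed without EFPrx1MSCLC 219 (1.43, edgeR adjusted p = 0.0375), Axl without MSC 202 (1.80, 0.0227) and Ccdc80 without EFPrx1MSCLC 221 (2.22, 0.0437). DESeq2 called Axl and Ccdc80 with all libraries (adjusted p = 0.0166 and 0.00889). The hematopoietic markers differed between the groups and among the EFPrx1MSCLC libraries. All 16 reached 1 CPM in every MSC library and in EFPrx1MSCLC 219, and 4 or 5 did in EFPrx1MSCLC 221, 225 and 229. In those libraries Ptprc was at most 0.128 CPM, Spi1 was at 0 in 221 and 229 and Laptm5 was at 0 in 225. Their part in the results was not tested, and in bulk RNA fewer cells of a type cannot be told apart from less RNA per cell.

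**Figure D2:**
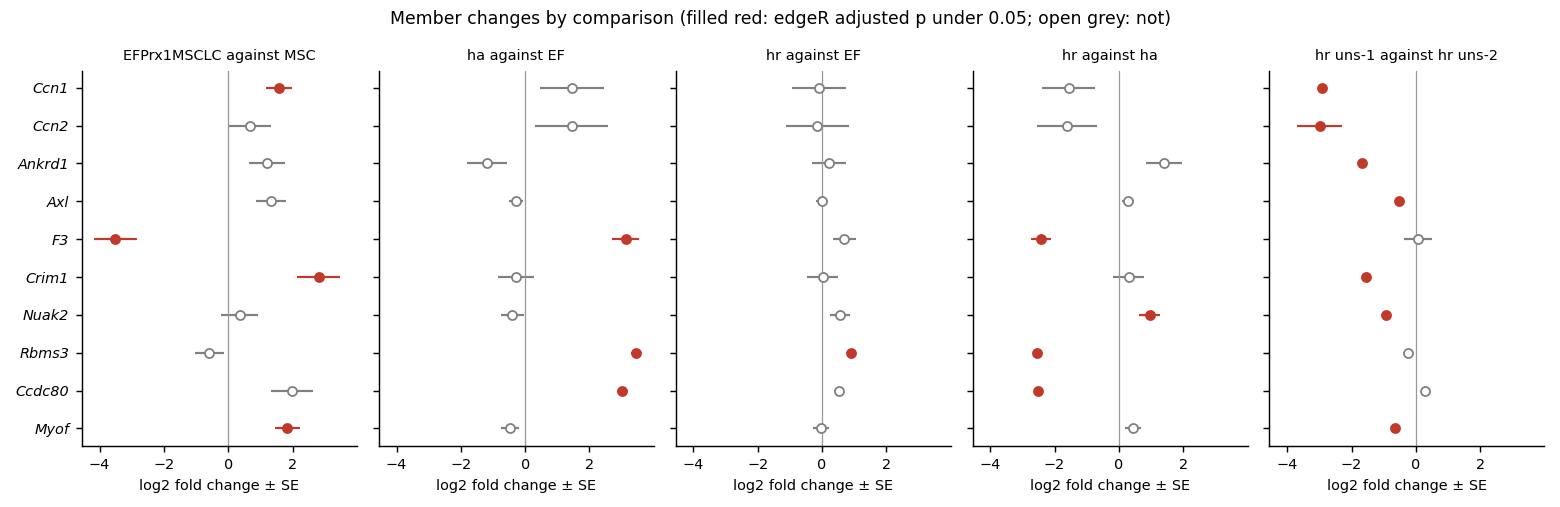
Log2 fold change ± SE of the 10 genes in 5 comparisons, each named as first group against second; filled red points passed the test (edgeR adjusted p under 0.05) and open grey points did not. In hr uns-1 against hr uns-2, 7 genes are lower, Ccn2 and Ccn1 by the most (-2.99 and -2.90).

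The ha libraries were set against EF. Of the 10 genes, F3, Rbms3 and Ccdc80 rose and 7 did not pass the test. In this comparison 42.6% of all 13998 genes tested were called, 23% higher and 19.6% lower, so that 3 risen genes of 10 is near the share among all genes. The median log2 fold change was 0.58 over the 10 genes and 0.05 over all genes.

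Rbms3 stood at 59.0 and 58.9 CPM in ha libraries 1 and 2, against 5.15 and 5.67 CPM in EF libraries 1 and 2. The gap was many times the spread within either group, and Rbms3 rose by 3.44 ± 0.17 (edgeR adjusted p = 3.33e-05). Ccdc80 had 183 and 238 CPM in ha and 25.0 and 26.8 CPM in EF, again without overlap, a rise of 3.02 ± 0.18 (edgeR adjusted p = 8.68e-05). F3 had 161 and 58.6 CPM in ha and 12.7 and 12.5 CPM in EF. Both ha libraries were higher than EF although they differed from each other, and F3 rose by 3.12 ± 0.42 (edgeR adjusted p = 0.0013); with repeat libraries summed, 3.10 did not pass (edgeR adjusted p = 0.0612). Of the 12 mesenchymal stromal markers, 7 rose and 2 fell in ha against EF (median log2 fold change 1.13), beside 23% of all genes higher and 19.6% lower. Their sums were 18250 and 20120 CPM in ha and 13240 and 13470 CPM in EF. Col1a2 weighed heavily in these sums (means of 8767 CPM in ha and 3657 CPM in EF), while Vim lay the other way (2020 and 4634 CPM). The part of the markers in the result was not tested. Tissue factor mRNA was thus higher in ha than in EF, while in experiment 1 it was lower in EFPrx1MSCLC than in MSC.

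The classical readouts did not pass in ha against EF. Ccn1 had 750 and 725 CPM in ha and 269 and 265 CPM in EF. The 4 libraries did not overlap, but the fit shares its spread with the hr libraries, where Ccn1 was uneven, and 1.47 ± 1.00 did not pass (edgeR adjusted p = 0.271). With only ha and EF in the fit Ccn1 passed (1.45, edgeR adjusted p = 0.00422), as it did with the hr lines as separate groups (1.47, 1.47e-05). Ankrd1 had 61.7 and 50.9 CPM in ha and 128.5 and 126.5 CPM in EF. It was lower in both ha libraries; -1.18 ± 0.61 did not pass (edgeR adjusted p = 0.158), but -1.20 did with only ha and EF in the fit (edgeR adjusted p = 0.00727) and -1.18 with the hr lines apart (0.000129). With the hr lines apart, Axl (-0.28, edgeR adjusted p = 0.013), Nuak2 (-0.41, 0.0262) and Myof (-0.48, 0.0129) also passed, so that 8 target genes were called, in a fit that called 56.4% of all genes. Ccn1 and Ankrd1, usually read as markers of the same activity, therefore lay on opposite sides of EF in ha. Each of them passed in 2 of 9 alternatives other than omissions, and in 0 of 4 omissions of a library. The fits in which they passed took spread from EF or hr pairs that may be repeat libraries.

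Ccn2 had 39.7 CPM in ha 1 and 196 CPM in ha 2, against 42.4 and 44.1 CPM in EF. The ha libraries lay on both sides of EF, and 1.45 ± 1.14 did not pass (edgeR adjusted p = 0.343). The same 2 libraries differed in the immediate-early genes (Fos, Jun, Egr1 and others, which respond within minutes to serum and handling), whose 12 genes summed to 3873 CPM in ha 1 and 906 CPM in ha 2, against 427 CPM in each EF library. F3 was higher and Ccn2 lower in ha 1, the library with the larger immediate-early sum; the part of this sum in either result was not tested. The remaining genes stayed within small differences, with Axl at 608 and 603.5 CPM in ha and 731 and 737 CPM in EF (-0.28 ± 0.21) and Crim1 at 159.9 and 212 CPM in ha and 222 and 228 CPM in EF (-0.28 ± 0.56). Nuak2 had 13.6 and 13.4 CPM in ha and 16.3 and 19.4 CPM in EF, and Myof 418 and 537 CPM in ha and 653 and 680.5 CPM in EF.

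The 4 hr libraries were compared with EF as a group, as the design sets them. Rbms3 rose by 0.91 ± 0.14 (edgeR adjusted p = 0.0167) and 9 genes did not pass. Among all genes, 6.95% were called, 3.88% higher and 3.07% lower, so 1 of 10 is near the background. Rbms3 had 9.70, 9.02, 11.9 and 10.04 CPM in hr libraries 1-1, 1-2, 2-1 and 2-2, all above the 5.15 and 5.67 CPM of EF, and its change was 0.98 without EF 2 and 0.84 without EF 1, neither of which passed (edgeR adjusted p = 0.193 and 0.216), nor did 0.90 with repeats summed (0.916). Ccdc80 had 41.2, 40.7, 33.0 and 33.7 CPM in hr and 25.0 and 26.8 CPM in EF, a difference of 0.52 ± 0.15 (edgeR adjusted p = 0.0837). It passed with DESeq2 (adjusted p = 0.0344). Ccn1, Ankrd1 and Crim1 had group differences near 0 (-0.10 ± 0.84, 0.21 ± 0.53 and 0.02 ± 0.49), with the hr lines on opposite sides of EF. With the lines as separate groups, the contrast averaged the log2 changes of the 2 lines, a different quantity from the pooled difference. In that fit, which called 26.2% of all genes, Ccn1 (-0.73, edgeR adjusted p = 0.000843), Nuak2 (0.47, 0.0192) and Ccdc80 (0.51, 0.0203) also passed. With only hr and EF in the fit, which called 14.6% of all genes, F3 passed (0.70, edgeR adjusted p = 0.00997).

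The hr lines were therefore set against each other. Of the 10 genes, 7 were lower in uns-1 than in uns-2 (Ccn1, Ccn2, Ankrd1, Axl, Crim1, Nuak2 and Myof), and F3, Rbms3 and Ccdc80 did not pass. Over all genes, 21.4% were called, 10.6% higher and 10.7% lower in uns-1. The median log2 fold change was -0.79 over the 10 genes and 0 over all genes, and 2 of the 10 were positive, beside 49.8% of all genes. If the pairs are repeat libraries, each line is 1 sample and the difference between lines has no replicate check.

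Ccn1 had 58.4 and 59.2 CPM in uns-1, against 444 and 436 CPM in uns-2. The uns-1 libraries were the lowest of experiment 2 for this gene, and Ccn1 was lower by -2.90 ± 0.07 on the log2 scale (edgeR adjusted p = 2.99e-05). Ccn2 had 8.77 and 8.60 CPM in uns-1 and 69.2 and 68.6 CPM in uns-2, also the lowest of the experiment in uns-1 (-2.99 ± 0.70, edgeR adjusted p = 0.0271). The fit shares its spread with ha, where Ccn2 was uneven, and the call of Ccn2 was lost when any of the 4 hr libraries was left out (edgeR adjusted p between 0.110 and 0.155) and with limma-voom (limma adjusted p = 0.109). Ankrd1 had 71.5 and 68.0 CPM in uns-1 and 229.7 and 220.0 CPM in uns-2, a difference of -1.69 ± 0.10 (edgeR adjusted p = 0.000287). All 3 classical readouts were thus lower in both uns-1 libraries than in either uns-2 library.

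Crim1 had 117 and 116 CPM in uns-1 and 341 and 340.1 CPM in uns-2. The pairs were almost identical within each line, and Crim1 was lower by -1.55 ± 0.13 (edgeR adjusted p = 0.000834). Nuak2, the AMPK-related kinase, had 17.8 and 18.4 CPM in uns-1 and 32.0 and 36.3 CPM in uns-2 (-0.91 ± 0.12, edgeR adjusted p = 0.00343). The calls of Ccn1, Ankrd1, Crim1 and Nuak2 held without each of the 4 hr libraries in turn. Myof had 506 and 503 CPM in uns-1 and 792 and 801 CPM in uns-2 (-0.66 ± 0.12, edgeR adjusted p = 0.0115), and Axl 595 and 613 CPM in uns-1 and 853 and 871 CPM in uns-2 (-0.51 ± 0.07, edgeR adjusted p = 0.00399). For these 2 genes of smaller change the call of Myof was lost without any 1 of the 4 hr libraries (edgeR adjusted p between 0.0804 and 0.0954), and that of Axl without hr 1-1, 1-2 or 2-2 (0.0633, 0.0545 and 0.0568).

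F3, Rbms3 and Ccdc80, which had risen in ha, did not separate the hr lines. F3 had 21.4 and 20.4 CPM in uns-1 and 20.5 and 19.5 CPM in uns-2, with overlapping values (0.07 ± 0.44, edgeR adjusted p = 0.932). Rbms3 differed by -0.23 ± 0.12 (edgeR adjusted p = 0.222). Ccdc80 was somewhat higher in uns-1, at 41.2 and 40.7 CPM, against 33.0 and 33.7 CPM in uns-2 (0.30 ± 0.13, edgeR adjusted p = 0.151), and passed with only the hr libraries in the fit (0.29, edgeR adjusted p = 0.00268).

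Each line was also set against EF, an alternative added after the values were seen; the 2 comparisons share the EF libraries. In uns-1, Rbms3 and Ccdc80 rose, Ccn1, Ankrd1, Axl and Crim1 fell, and 4 genes did not pass, where 24.7% of all genes were called (12% higher, 12.7% lower). In uns-2, Ccn1, Ankrd1, Crim1, Nuak2 and Rbms3 rose and 5 genes did not pass, where 24% of all genes were called (12% higher and 12% lower). Ccn1 had a log2 fold change of -2.18 ± 0.07 in uns-1 against EF (edgeR adjusted p = 0.000111) and of 0.72 ± 0.07 in uns-2 against EF (edgeR adjusted p = 0.00104). Ankrd1 had -0.87 ± 0.10 in uns-1 (edgeR adjusted p = 0.00216) and 0.82 ± 0.10 in uns-2 (edgeR adjusted p = 0.00243), and Crim1 -0.95 ± 0.13 in uns-1 (edgeR adjusted p = 0.00363) and 0.60 ± 0.13 in uns-2 (edgeR adjusted p = 0.0171). These 3 genes passed on opposite sides of EF in the 2 lines. The EF pair and each hr pair may be repeat libraries, in which case these differences have no replicate check. Ccn2 had -2.31 ± 0.70 in uns-1 and 0.67 ± 0.62 in uns-2, neither past the threshold (edgeR adjusted p = 0.0546 and 0.477). Nuak2 did not pass in uns-1 (0.02 ± 0.12, edgeR adjusted p = 0.938) and rose in uns-2 (0.93 ± 0.12, edgeR adjusted p = 0.00318), whereas Rbms3 rose in both lines (0.79 ± 0.13 and 1.02 ± 0.13, edgeR adjusted p = 0.00664 and 0.00285).

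**Figure D3:**
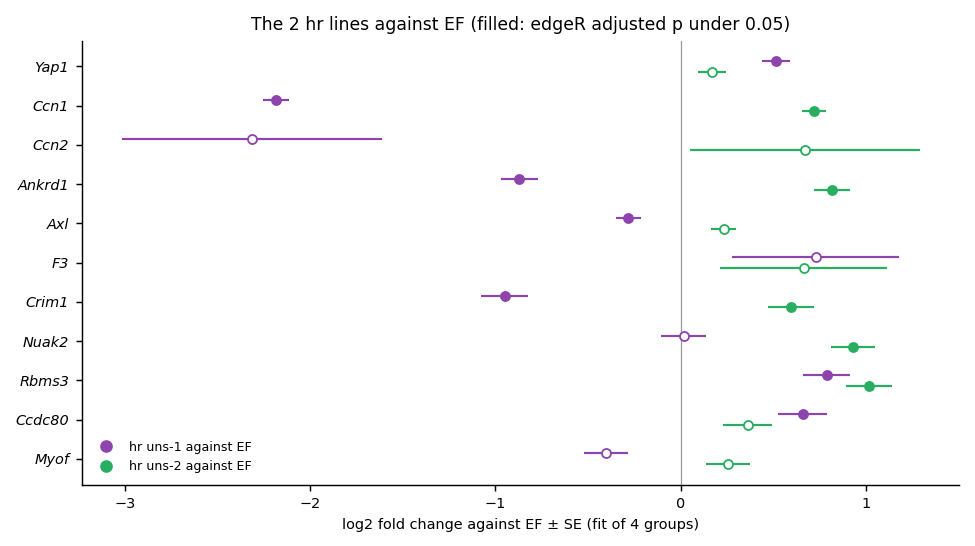
Log2 fold change against EF ± SE of Yap1 and the 10 target genes in hr uns-1 (purple) and hr uns-2 (green), from the fit of 4 groups; filled points passed the test. Yap1 itself was 0.52 above EF in uns-1, the line in which Ccn1 was lowest (-2.18), and both comparisons share the EF libraries.

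In hr against ha, Nuak2 rose, F3, Rbms3 and Ccdc80 fell, and 6 genes did not pass. Among all genes 39.4% were called, 17.9% higher and 21.5% lower, so the count of 4 among 10 is near the background. Rbms3 fell by 2.54 ± 0.12 on the log2 scale (edgeR adjusted p = 2.6e-05), Ccdc80 fell by 2.51 ± 0.14 (edgeR adjusted p = 4.49e-05) and F3 fell by 2.42 ± 0.32 (edgeR adjusted p = 0.00121). Each of these 3 was lower in all 4 hr libraries than in either ha library. Of the 12 mesenchymal stromal markers, 2 rose and 8 fell in hr against ha (median -0.99), and their part in the result was not tested. F3 had 21.4, 20.4, 20.5 and 19.5 CPM in hr, against 161 and 58.6 CPM in ha. Nuak2 had 17.8, 18.4, 32.0 and 36.3 CPM in hr and 13.6 and 13.4 CPM in ha, without overlap (0.95 ± 0.32, edgeR adjusted p = 0.0479). Its call was lost without ha 1, ha 2, hr 2-1 or hr 2-2 (edgeR adjusted p = 0.149, 0.166, 0.0951 and 0.0807), with no filter, the 5 CPM filter, only hr and ha in the fit, the replicate block or repeats summed (0.0713, 0.0522, 0.0748, 0.0724 and 0.139), and with limma-voom (limma adjusted p = 0.0656). Ccn1 was at 58.4 to 444 CPM in hr and 725 to 750 CPM in ha, and -1.56 ± 0.81 did not pass (edgeR adjusted p = 0.163). Ankrd1 was higher in all 4 hr libraries than in ha, and 1.39 ± 0.56 did not pass (edgeR adjusted p = 0.0842), but it passed without hr 1-1 or hr 1-2 (1.62 and 1.63, edgeR adjusted p = 0.042 and 0.0365). With the hr lines as separate groups, the contrast again averaged the log2 changes of the 2 lines, in a fit that called 54.6% of all genes. There Ccn1 (-2.20, edgeR adjusted p = 1.53e-06), Ccn2 (-2.27, 0.00996) and Ankrd1 (1.16, 8.93e-05) passed, as did Axl and Myof.

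Placed in order of mean level over the 4 groups of experiment 2, the genes fell into 2 kinds of pattern. Ankrd1, Axl, Crim1, Nuak2 and Myof were highest in uns-2, while Ccn1, Ccn2, F3, Rbms3 and Ccdc80 were highest in ha. Ccn1 stood at 737.5 ± 17.2 CPM in ha, 58.8 ± 0.57 CPM in uns-1, 439.9 ± 6.1 CPM in uns-2 and 266.9 ± 2.82 CPM in EF (SD, n = 2 each). Its order was ha, uns-2, EF and uns-1, no neighbours overlapped, and the highest group mean was 12.6 times the lowest. Ccn2 had the same order of means and a ratio of 13.6, but ha led only through ha 2, since ha 1 lay below both EF libraries; ha overlapped uns-2 and EF. Ankrd1 ran uns-2, EF, uns-1 and ha, with a ratio of 3.99, and Crim1 uns-2, EF, ha and uns-1, with a ratio of 2.92; no neighbours overlapped for either gene. For Axl and Myof, uns-2 and EF led, ha and uns-1 overlapped, and the ratios were small, at 1.43 and 1.67. Nuak2 was highest in uns-2, with uns-1 and EF overlapping and ha lowest (ratio 2.53). Rbms3 ran ha, uns-2, uns-1 and EF without overlap (ratio 10.9), Ccdc80 ran ha, uns-1, uns-2 and EF without overlap (ratio 8.14), and F3 ran ha, then both hr lines, which overlapped, then EF (ratio 8.72).

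Likeness between genes was measured as the root mean square difference of log2(CPM + 1), centred on each gene's mean, over the 8 libraries of experiment 2, which include possible repeats. The nearest other target gene of Axl was Myof and of Myof was Axl (0.14). Rbms3 and Ccdc80 were nearest to each other (0.24), and F3 was nearest to Rbms3 (0.40). Crim1 and Nuak2 were nearest to Myof (0.34 and 0.28), and Ankrd1 was nearest to Nuak2 (0.42). Ccn1 and Ccn2 were nearest to each other, but at the largest distance of these pairs (0.61). Among the 9425 genes that averaged 10 CPM or more, Ccn1 was nearest to Svep1 (0.22), Ptx3 (0.30) and Cxcl1 (0.42), which encode a large extracellular matrix protein, a secreted pentraxin and a chemokine. Ccn2 was nearest to Plscr2 (0.50), Ptx3 (0.56) and Svep1 (0.56), and Ankrd1 to Heatr1 (0.20), Rnd1 (0.23) and Chka (0.23).

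The coactivator and its DNA-binding partners were read beside their targets. Yap1 had 212.8, 172, 208 and 195 CPM in EFPrx1MSCLC libraries and 136, 69.8 and 72.1 CPM in MSC libraries (1.09 ± 0.30, edgeR adjusted p = 0.0429), without overlap. Its call was lost with no filter (edgeR adjusted p = 0.0639) and without EFPrx1MSCLC 219, 221, 225 or 229 (0.0757, 0.0765, 0.0591 and 0.0953) or MSC 234 or 237 (0.151 and 0.175). In experiment 2 it had 196 and 185 CPM in ha, 1806 and 1807 CPM in uns-1, 1428 and 1411 CPM in uns-2 and 1276 and 1249 CPM in EF. The ha libraries lay far below all others, at -2.73 ± 0.18 against EF (edgeR adjusted p = 0.000122), and uns-1 was above uns-2 by 0.35 ± 0.08 (edgeR adjusted p = 0.021). The call between the lines was lost without any 1 of the 4 hr libraries (edgeR adjusted p between 0.143 and 0.163). The order of Yap1 was thus uns-1, uns-2, EF and ha, the reverse of that of Ccn1 at both ends: Ccn1 mRNA was lowest where Yap1 mRNA was highest, and highest where Yap1 mRNA was lowest. Ankrd1, in contrast, was lowest in ha, where Yap1 was lowest.

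Wwtr1, which encodes TAZ, had 177 and 170 CPM in ha, 136 and 131 CPM in uns-1, 130.3 and 129 CPM in uns-2 and 115 and 116 CPM in EF. It was highest in ha, where it rose by 0.59 ± 0.09 over EF (edgeR adjusted p = 0.00245; 0.194 with repeats summed), and uns-1 against uns-2 did not pass (0.05 ± 0.06, edgeR adjusted p = 0.637). Tead1 had 173 and 174 CPM in uns-1 and 275.5 and 270.2 CPM in uns-2 (-0.65 ± 0.07, edgeR adjusted p = 0.00231). Tead4 had 10.9 and 10.5 CPM in uns-1 and 21.8 and 23.6 CPM in uns-2 (-1.09 ± 0.12, edgeR adjusted p = 0.00191), without overlap. Tead1 and Tead4 were thus lower in uns-1, on the same side as 7 of the target genes. Tead2 lay the other way, at 66.3 and 66.1 CPM in uns-1 and 43.5 and 43.8 CPM in uns-2, also without overlap. It did not pass (0.60, edgeR adjusted p = 0.182), but did with no filter (0.57, 0.000123) and with only the hr libraries in the fit (0.59, 6.99e-08). Tead3 did not pass (-0.30, edgeR adjusted p = 0.0856), but did with only the hr libraries (-0.31, 0.00612). Tead4 was also lower in ha than in EF (-1.88 ± 0.43, edgeR adjusted p = 0.0109) and higher in EFPrx1MSCLC than in MSC (2.84 ± 0.67, edgeR adjusted p = 0.0254). The call of Tead4 in ha was lost without EF 1 or ha 2 (edgeR adjusted p = 0.0509 and 0.0575) and with repeats summed (0.0791), and that in EFPrx1MSCLC without EFPrx1MSCLC 229, MSC 234 or MSC 237 (0.0569, 0.0652 and 0.106). These are mRNA levels; the amount of YAP1 protein and its place in the cell were not measured.

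**Figure D4:**
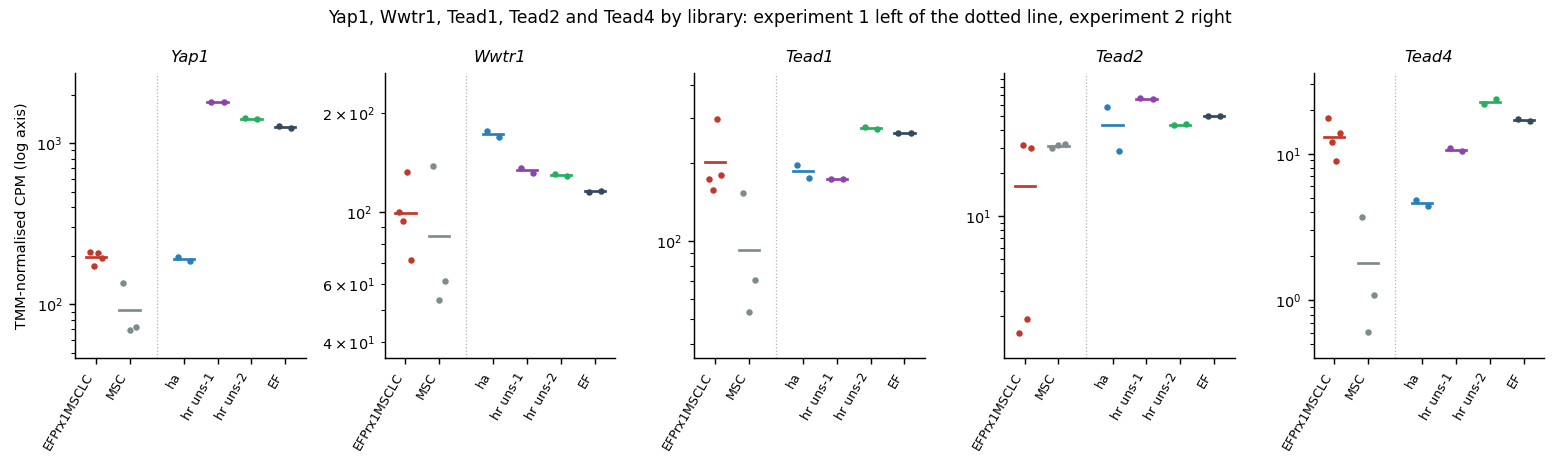
TMM-normalised CPM (log axis) of Yap1, Wwtr1, Tead1, Tead2 and Tead4 in each library, with groups as in the plot of the 10 target genes; points are libraries and bars group means. In experiment 2, Yap1 is at 196 and 185 CPM in ha and between 1249 and 1807 CPM in all other libraries.

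The 10 genes belong to a 22-gene YAP1/TAZ-TEAD signature from pan-cancer studies of human tumours, and the other 12 genes were counted in the same fits. Beside these counts, 19.8% of all genes were called in EFPrx1MSCLC against MSC and 42.6% in ha against EF. The shares were 39.4% in hr against ha and 6.95% in hr against EF. In EFPrx1MSCLC against MSC, 3 rose, 1 fell and 8 did not pass. Tgfb2, a growth factor gene, had 66.1 to 155.1 CPM in EFPrx1MSCLC and 6.43 to 8.37 CPM in MSC (3.73 ± 0.38, edgeR adjusted p = 0.00179), Dock5, a RAC activator gene, rose by 1.98 ± 0.37 (edgeR adjusted p = 0.0109; 0.0528 without MSC 237), and Gadd45a, a stress response gene, fell by 2.24 ± 0.36 (edgeR adjusted p = 0.00665). In ha against EF, 4 rose, 2 fell and 6 did not pass. Igfbp3, which encodes the main IGF carrier, had 32.0 and 38.9 CPM in ha and 1.51 and 1.28 CPM in EF (4.66 ± 0.28, edgeR adjusted p = 8.18e-05). Tgfb2 had 43.3 and 57.3 CPM in ha and 8.52 and 7.34 CPM in EF (2.67 ± 0.33, edgeR adjusted p = 0.000926), and Dock5 fell by 0.65 ± 0.13 (edgeR adjusted p = 0.00539; 0.138 with repeats summed). In hr against ha, 1 rose, 4 fell and 7 did not pass, led by Igfbp3 (-3.26 ± 0.19, edgeR adjusted p = 5.16e-05), Tgfb2 (-2.92 ± 0.26, 0.000245) and Dock5 (0.85 ± 0.11, 0.00119; 0.0567 with repeats summed). In hr against EF, 2 rose, 1 fell and 9 did not pass, with Igfbp3 at 1.40 ± 0.25, Gadd45a at 1.08 ± 0.25 and Arhgef17 at -0.52 ± 0.10 (edgeR adjusted p = 0.0232, 0.0446 and 0.0333). The call of Igfbp3 was lost without any 1 library but hr 2-1 (edgeR adjusted p between 0.0511 and 0.259), and those of Gadd45a and Arhgef17 without any 1 library (0.0617 to 0.319 for Gadd45a and 0.0542 to 0.294 for Arhgef17). All 3 were lost with the replicate block (0.0527, 0.0784 and 0.0745 for Igfbp3, Gadd45a and Arhgef17) and with repeats summed (0.916 each), and Igfbp3 and Gadd45a with limma-voom (limma adjusted p = 0.0781 and 0.0578).

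In uns-1 against uns-2, 2 of the other 12 rose, 4 fell and 6 did not pass, beside 10.6% of all genes higher and 10.7% lower. The genes with the lowest p were Amotl2, Lats2 and Ptpn14, all lower in uns-1. Each of them encodes a restrainer of YAP1, an angiomotin, a Hippo kinase and a phosphatase, and each is itself a known target. Amotl2 had 128.8 and 136.4 CPM in uns-1 and 400.4 and 395.3 CPM in uns-2 (-1.58 ± 0.08, edgeR adjusted p = 0.000182). Lats2 had 72.4 and 70.2 CPM in uns-1 and 148.8 and 148.0 CPM in uns-2 (-1.06 ± 0.08, edgeR adjusted p = 0.00063), and Ptpn14 85.5 and 82.2 CPM in uns-1 and 172.9 and 181.0 CPM in uns-2 (-1.08 ± 0.12, edgeR adjusted p = 0.00227). The genes that rose, Tgfb2 (0.76 ± 0.20, edgeR adjusted p = 0.0376) and Asap1 (0.38, 0.0124), did not share that direction. Against EF, the other 12 gave 2 risen and 4 fallen genes in uns-1 and 6 risen and 2 fallen genes in uns-2. Of all genes, 24.7% were called in uns-1 against EF and 24% in uns-2 against EF. Amotl2 had -1.05 ± 0.08 in uns-1 (edgeR adjusted p = 0.00072) and 0.54 ± 0.08 in uns-2 (edgeR adjusted p = 0.00468), whereas Lats2 did not pass in uns-1 (0.05 ± 0.08, edgeR adjusted p = 0.674) and rose in uns-2 (1.11 ± 0.08, edgeR adjusted p = 0.000606).

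Of 23 Hippo pathway and TEAD cofactor genes listed, 21 were tested. In uns-1 against uns-2, 3 rose, 6 fell and 12 did not pass, beside 10.6% of all genes higher and 10.7% lower. Vgll3, a TEAD cofactor gene, had 62.4 ± 2.1 CPM in uns-1 and 188.4 ± 0.85 CPM in uns-2 (SD, n = 2 each; -1.60, edgeR adjusted p = 0.00172). Stk3, which encodes the Hippo kinase MST2, had 0.73 (edgeR adjusted p = 0.00429), and Vgll4, a TEAD repressor gene, had 0.47 (edgeR adjusted p = 0.0184). In EFPrx1MSCLC against MSC, 7 of the 21 rose and 1 fell, beside 7.7% of all genes higher and 12.1% lower. In ha against EF, 5 rose and 6 fell, beside 23% of all genes higher and 19.6% lower. By median and by sum, the 12 immediate-early genes were on the same side as the targets called between the hr lines. Their median log2 fold change was -1.02, and they summed to 415 and 409 CPM in uns-1 and 761 CPM in each uns-2 library. Egr2 and Egr3 lay the other way, with means of 2.16 and 2.16 CPM in uns-1 and 0.92 and 1.76 CPM in uns-2. Of the 12, Dusp1 and Ier3 were lower in uns-1 (-1.92 and -1.11, edgeR adjusted p = 0.0229 and 0.0284) and 10 did not pass. The part of these genes in the result was not tested. In ha against EF, 10 of the 12 immediate-early genes rose and 1 fell, beside 23% of all genes higher and 19.6% lower.

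Library 221 of experiment 1 and the EF libraries of experiment 2 carry the same title number and were set side by side without a test, since they were scaled apart on different flowcells. Ccn1 was at 1146 CPM in library 221 and at 269 and 265 CPM in EF. Ccn2 was at 1126 CPM in library 221 and at 42.4 and 44.1 CPM in EF. Ankrd1 and Yap1 were higher in EF, with Ankrd1 at 38.4 CPM in library 221 and at 128.5 and 126.5 CPM in EF, and Yap1 at 172 CPM in library 221 and at 1276 and 1249 CPM in EF. The sources used here do not say whether the cells came from the same culture or at which passage.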

How the data were processed

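For poly(A) RNA of 15 libraries the authors deposited 1 table of estimated counts per gene, of 55471 genes; the submitters' processing notes list STAR, RSEM and GRCm38.p6 but give neither versions nor roles. Expected counts were rounded to whole numbers (8.27% were not whole), low genes were removed with filterByExpr (minimum count 10), libraries were scaled by TMM within each experiment, and tests used edgeR's quasi-likelihood method (two-sided, Benjamini-Hochberg over all genes tested, threshold 0.05). Experiment 1 was fitted with 2 groups and experiment 2 with 3; the hr lines were compared in a fit of 4 groups. Tool versions were edgeR 4.0.16, DESeq2 1.42.0 and limma 3.58.1 under R 4.3.3, and the fits were tested on simulated data. Gene names and positions come from a GRCm38 annotation; promoters come from RefSeq, GRCm38.p6. Motif windows held 250 bases.

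The 10 target genes and all lists were chosen with earlier results of these data known. Named besides them are Yap1, Wwtr1, Tead1 to Tead4, the up to 3 called genes of lowest p among the other 12 of a 22-gene signature, and the 3 genes nearest in pattern to Ccn1, Ccn2 and Ankrd1. Asap1, Vgll3, Vgll4, Stk3, Dusp1 and Ier3 were named after their values were seen. Epithelial, endothelial and myogenic markers summed to at most 53.3, 123 and 5.91 CPM in any library. Alternatives were DESeq2 size factors, other filters (none, or 5 CPM), DESeq2's Wald test, limma-voom, leaving out each library, fits of only the groups compared, the title number as a block, hr lines as separate groups and repeat libraries summed. Comparisons of each hr line with EF were added after the data were seen.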

Additional observations from a re-analysis of the deposited data

Results flagged for a closer look

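Among the 10 target genes and 6 factors in the 2 groups of 4 libraries examined, 32 gene and group pairs in all, 3 held a library far from the other three, all in EFPrx1MSCLC 225: F3 at 42.0 CPM, Rbms3 at 62.1 CPM and Tead1 at 296.6 CPM. For 4 independent libraries, chance alone marks about 1 such pair in 20. The 4 hr libraries are 2 pairs of possible repeats, so this rate does not apply to them.

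The effect against EF differed between the hr lines, by the test of uns-1 against uns-2, for 7 target genes and for other genes named in the text. The log2 differences were -2.90 for Ccn1, -2.99 for Ccn2, -1.69 for Ankrd1, -0.51 for Axl, -1.55 for Crim1, -0.91 for Nuak2 and -0.66 for Myof (edgeR adjusted p between 2.99e-05 and 0.0271). They were 0.35 for Yap1, -0.65 for Tead1, -1.09 for Tead4, -1.58 for Amotl2, -1.06 for Lats2 and -1.08 for Ptpn14 (edgeR adjusted p between 0.000182 and 0.021). The calls of Ccn2, Myof and Yap1 were lost without any 1 hr library, and that of Axl without hr 1-1, 1-2 or 2-2. Limma-voom did not call Ccn2 either. Of genes named elsewhere or after their values were seen, Tgfb2 had 0.76, Dock5 -0.24, Asap1 0.38, Vgll3 -1.60, Stk3 0.73, Vgll4 0.47, Dusp1 -1.92 and Ier3 -1.11 (edgeR adjusted p between 0.00172 and 0.0392). Ccn1, Ankrd1 and Crim1 passed in both lines, on opposite sides of EF. The lines and EF each hold 2 libraries that may be repeats, in which case each of them is 1 sample.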

How the results depend on the processing

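Of the target genes' log2 fold changes under alternatives, 101 of 120 kept direction and side of the threshold in EFPrx1MSCLC against MSC, 121 of 130 in ha against EF, 131 of 170 in hr against EF, 132 of 150 in hr against ha and 97 of 110 in uns-1 against uns-2; the cause of the others was not tested. Leaving out 1 library gave 1 to 5 called target genes in EFPrx1MSCLC against MSC (4 with all), 3 in ha against EF (3 with all), 0 to 1 in hr against EF (1 with all), 3 to 5 in hr against ha (4 with all) and 4 to 5 in uns-1 against uns-2 (7 with all), and over all genes 1221 to 5087 calls (2889 with all), 3071 to 5481 (5962), 0 to 379 (973), 4514 to 5121 (5517) and 744 to 768 (2989). The counts of 0 in hr against EF arose in edgeR without EF 1 or EF 2, where 1 and 2 target genes and 1917 and 1888 genes had an unadjusted p under 0.05, while DESeq2 with all libraries called 2 and 1972.

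DESeq2's Wald test called 4548 genes in EFPrx1MSCLC against MSC. With only the groups compared in the fit, 5 target genes were called in ha against EF, 3 target genes and 1926 genes in hr against EF, and 7199 genes between the hr lines. With the hr lines as separate groups, 8 target genes and 7901 genes were called in ha against EF, 4 target genes and 3671 genes in hr against EF and 9 target genes and 7643 genes in hr against ha. With repeat libraries summed, 727 genes were called in ha against EF, 1269 in hr against ha, and 0 target genes and 0 genes in hr against EF (1 and 798 at an unadjusted p under 0.05). Against EF, uns-1 alone gave 6 target genes and 3462 genes, and uns-2 alone 5 and 3361.

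Deviations of equally numbered libraries correlated between -0.22 and 0.0046 across groups. Each such correlation used the EF pair or an hr pair, which differed little beyond sampling noise. It therefore cannot show whether the last title numbers pair the libraries. A fit with the replicate block called 322 genes in hr against EF.

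Signs reversed in hr against EF for differences near 0. With uns-2 alone, values were 0.72 for Ccn1, 0.67 for Ccn2, 0.23 for Axl, 0.26 for Myof, 0.059 for Tead1, -0.20 for Tead2, 0.018 for Tead3 and 0.41 for Tead4, and with uns-1 alone -0.87 for Ankrd1 and -0.95 for Crim1. Limma-voom gave -0.029 for Ankrd1 and -0.18 for Crim1, separate lines -0.026 and -0.18, no filter 0.0101 for Axl and the 5 CPM filter 0.00996. Leaving out 1 library gave -0.53 to 0.23 for Ccn1, -0.60 to 0.18 for Ccn2, -0.090 to 0.45 for Ankrd1, -0.095 to 0.087 for Axl, -0.24 to 0.24 for Crim1, -0.15 to 0.072 for Myof and -0.24 to 0.14 for Tead4. Elsewhere, Nuak2 in EFPrx1MSCLC against MSC was -0.038 with limma-voom and -0.21 to 0.58 with 1 library left out. With 1 library left out, Wwtr1 in that comparison was -0.0098 to 0.80, Ccn2 in ha against EF -0.12 to 2.17, Tead2 in ha against EF -0.82 to 0.21 and Tead2 in hr against ha -0.082 to 0.95.

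Expected counts carry no strand information here, and the 2 libraries of EF, of ha and of each hr line limit what can be seen of small changes.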
